A study of Mus musculus with 3 samples.

Results

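Immunoglobulin isotype constant genes encode the part of an antibody that sets its class. The 10 genes described here are among the 54838 genes listed in the files. They were chosen by symbol and not by a rule on their values, but earlier results of these data were known. They are 8 heavy chain constant genes (Ighm, Ighd, Ighg3, Ighg1, Ighg2b, Ighg2c, Ighe and Igha), the kappa light chain constant gene Igkc, and Jchain, which encodes the joining chain of polymeric IgM and IgA. All 10 had at least 1 UMI (unique molecular identifier, a tag that marks 1 captured transcript) in tissue, as did 34634 of all genes. They were measured by spatial transcriptomics (BMKMANU S1000) in 10 µm thymus sections of 3 female C57BL/6 mice perfused with PBS, 1 section per mouse. KO1134 and KO1308 are the sections labelled Trp53-/-, from mice of 17 and 21 weeks, and WT1101 is the section labelled Trp53+/+, from a mouse of 17 weeks. Names and ages follow the labels of the deposited samples. A supplementary table of the study lists the KO sections differently, so which KO mouse each section came from is not certain. Trp53 encodes p53, a tumour suppressor, and the study set knockout (KO) thymus beside wild-type (WT) thymus. Permeabilisation took 27 min for KO and 25 min for WT tissue, so genotype and permeabilisation cannot be told apart. With 1 WT section no test between genotypes was possible. The intervals given are 95% intervals for counting error only, and no p-value is given.

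A naive B cell makes IgM and IgD from 1 rearranged heavy chain gene by alternative processing of its transcript. After activation, class switch recombination deletes the DNA between switch regions and places Ighg, Ighe or Igha next to the variable region in place of Ighm. Plasma cells then transcribe heavy chain, Igkc and Jchain at very high levels as secreted forms. The normal thymus holds a small population of B cells and plasma cells, mostly in the medulla, and immature T cells are known to make some transcripts from the unrearranged Ighm gene.

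The 8 heavy chain genes lie on the minus strand of GRCm38, at chr12:113254830-113422730, a span of 168 kb. They are transcribed in the order Ighm (chr12:113418558-113422730), Ighd, Ighg3, Ighg1 (chr12:113325240-113330523), Ighg2b (chr12:113302965-113307933), Ighg2c (chr12:113285325-113288932), Ighe (chr12:113269260-113273248) and Igha (chr12:113254830-113260236). Igkc lies at chr6:70726435-70726966 on the plus strand and Jchain at chr5:88519809-88527891 on the minus strand. The positions are those of GENCODE M21, which held 99.8% of the identifiers in the files and all 10 members. Igkc lies inside the long non-coding gene Gm30211 (chr6:70719074-70740554, plus strand), so reads of these overlapping genes could not be told apart with certainty.

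The last 60 coding bases of the secreted form of 4 heavy chain transcripts (GENCODE M21) show how the classes that bind the J chain differ from those that do not. The capitals mark the cysteine codon before the last amino acid of the IgM and IgA tailpiece, through which these chains join the J chain. The 2 most abundant Ighg genes have no cysteine codon at either of the last 2 coding positions.
Ighm: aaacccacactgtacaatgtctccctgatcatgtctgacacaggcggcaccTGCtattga
Igha: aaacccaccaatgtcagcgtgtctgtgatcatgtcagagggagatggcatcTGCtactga
Ighg2b: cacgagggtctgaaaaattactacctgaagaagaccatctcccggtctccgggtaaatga
Ighg2c: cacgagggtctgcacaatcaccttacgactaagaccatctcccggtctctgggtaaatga

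Reads of the Ighg genes can be shared where their sequences are alike, which matters for the Ighg2b and Ighg2c values below. The longest stretch these 2 genes share was 78 coding bases and is printed in full.
Ighg2b and Ighg2c: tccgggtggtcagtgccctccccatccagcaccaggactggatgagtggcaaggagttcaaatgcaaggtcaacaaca
Of the 1065 stretches of 50 bases (the length of read 2 in the methods) in the secreted Ighg2b transcript, 56 (5.26%) occurred in another heavy chain gene, and none of the 300 nearest the 3′ end did. In Ighg2c these were 56 of 1062 stretches. Ighg1, Ighg3, Ighm, Ighd, Ighe and Igha held no such shared stretch.

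The spots of each section were added up on a grid of 27 µm squares (bins), and a bin with at least 300 genes counted as tissue. Tissue held 12018 bins in KO1134, 15973 in KO1308 and 27096 in WT1101, with a mean of 2589.6, 1095 and 1497 UMIs per bin. Trp53 was at 17.0 and 25.1 CPM in the KO sections and 79.95 in WT. CPM, the level used throughout, is the UMI count of a gene scaled to a common total of 1000000 UMIs. A bin was placed in a B cell zone where the window of 7 × 7 bins around it held more UMIs of Cd79a, Cd79b and Ms4a1 than of 6 thymus genes. By this rule 1965 bins of KO1134 and 456 of KO1308 were zone, and 0 of WT1101. The 6 thymus genes were at 645 CPM in KO1134 tissue, 1428 in KO1308 and 2082 in WT. The same B cell level can thus count as zone in a KO section and not in WT. A count of 0 zone bins therefore does not show that WT lacked B cells. The thymus area, which excludes zones, had 8647, 13253 and 24694 bins. All 5 B cell markers, of which the rule itself uses 3, were found in both zones, and as a description they summed to 913 CPM in KO1134 and 867 in KO1308, against 101 and 112 in the thymus area of the same sections and 44.9 in WT. Pax5 and Cd22, B cell genes the rule does not use, were at 8.16 and 5.76 times the thymus level in the KO1134 zones and at 8.99 and 8.03 times in those of KO1308. Thymocyte markers in the thymus area summed to 725 CPM in KO1134, 1979.8 in KO1308 and 3544 in WT, lower in both KO sections. Medulla epithelial markers there summed to 572, 649 and 134 CPM, higher in both KO sections. The thymus areas compared were therefore not alike in make-up, and the part of either difference in the CPM of the members was not tested. Fewer cells of a type and less RNA per cell cannot be told apart in such bins.

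In the thymus area the members took a larger share of the RNA in both KO sections than in WT. Their sum was 11648 CPM in KO1134, 15403 in KO1308 and 4074 in WT1101, which is 2.86-fold (2.84 to 2.88) and 3.78-fold (3.76 to 3.81) the WT level. At least 2-fold higher than WT were 7 of the 10 members in KO1134, where 16.1% of the 16745 genes tested were, and 9 of 10 in KO1308, where 19.4% were. At least 2-fold lower was 1 member in KO1134 (7.91% of all genes) and none in KO1308 (3.62%). The median ratio was 3.40 for the members and 1.04 for all genes in KO1134, and 4.51 and 1.14 in KO1308. Both comparisons use the same WT section. The UMI counts come from the 3′ end, 1 per molecule, so levels were compared between genes without a correction for length.

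**Figure D1:**
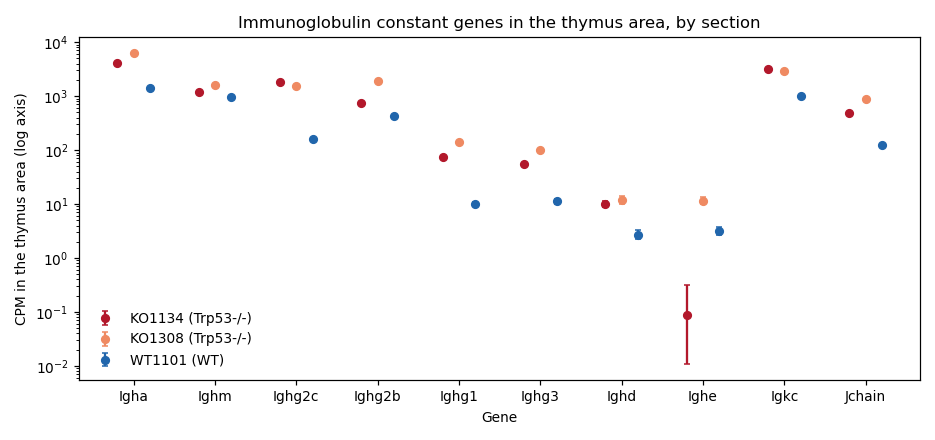
CPM (log axis) of the 10 members in the thymus area, with points for the 3 sections and bars for exact Poisson 95% intervals of counting error. WT1101 lies below both KO sections for 9 genes, and for Ighe it lies between KO1134, with 2 UMIs, and KO1308.

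Igha, the constant gene of IgA, the main antibody of mucosal surfaces, was the most abundant member in the thymus area of every section. It stood at 4161 CPM in KO1134, 6290.4 in KO1308 and 1392 in WT. The ratios to WT were 2.99 (2.96 to 3.02) and 4.52 (4.47 to 4.57), and the KO sections differed from each other by 1.51-fold. In WT a few bins weighed heavily on it: without the 1% of thymus bins with most UMIs of the members, Igha was at 845 CPM in WT, 3517 in KO1134 and 5629 in KO1308.

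Ighm, the constant gene of IgM, the first class a B cell makes, had the ratio to WT nearest 1 in both KO sections. Its level was 1183 CPM in KO1134, 1586.5 in KO1308 and 945 in WT. The ratios to WT were 1.25 (1.23 to 1.27) and 1.68 (1.65 to 1.71), and that between the KO sections was 1.34 (1.32 to 1.37). The gap of KO1134 to WT was therefore smaller than the gap between the KO sections. Ighd, the constant gene of IgD, a receptor of naive B cells, was rare at 9.90, 11.9 and 2.71 CPM, from 222, 164 and 104 UMIs. Its 2 KO levels did not differ beyond counting error, with a ratio of 1.20 (0.976 to 1.48).

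Ighg2c and Ighg1 had the largest ratios to WT. Ighg2c, the IgG2c gene that C57BL/6 mice carry, was at 1803 CPM in KO1134, 1529 in KO1308 and 159 in WT, or 11.4-fold (11.1 to 11.7) and 9.63-fold (9.36 to 9.91) the WT level. Its KO levels were much closer to each other than to WT. Ighg1 was at 75.1, 138 and 10.1 CPM, with ratios of 7.47 (6.68 to 8.36) and 13.7 (12.3 to 15.4). Ighg3 was at 55.0, 101 and 11.2 CPM, with ratios of 4.90 and 9.01. Ighg2b differed more between the KO sections than between KO1134 and WT: it was at 751 CPM in KO1134, 1931 in KO1308 and 428 in WT, with ratios of 1.75 and 4.51 to WT and 2.57 between the KO sections.

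Ighe, the constant gene of IgE, the class bound by mast cells, did not follow the others. Its UMIs in the thymus area numbered 2 in KO1134, 160 in KO1308 and 123 in WT, or 0.0891, 11.6 and 3.20 CPM. KO1134 was lower than WT, with a ratio of 0.0278 (0.00333 to 0.103), while KO1308 was higher, at 3.62 (2.84 to 4.62). The KO sections thus fell on opposite sides of WT. Igkc was at 3131 CPM in KO1134, 2937 in KO1308 and 997 in WT (3.14-fold and 2.95-fold). Jchain was at 479, 866 and 125 CPM (3.84-fold and 6.93-fold), and both are products of antibody-secreting cells. Among light chain constant UMIs, Igkc made up 90.3% in KO1134, 86.8% in KO1308 and 70.1% in WT, and the 3 lambda genes Iglc1, Iglc2 and Iglc3 the rest.

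Isotype shares differed between KO and WT in the same direction in both KO sections for Ighm and for the Ighg genes together. Of all heavy chain UMIs in the thymus area, Ighm made up 14.7% (14.6 to 14.9) in KO1134, 13.7% (13.5 to 13.8) in KO1308 and 32.0% (31.8 to 32.3) in WT. The 4 Ighg genes made up 33.4%, 31.9% and 20.6%, and Igha 51.8%, 54.2% and 47.2%. Without the 1% of bins with most UMIs of the members, Igha was 49.9%, 53.4% and 38.1%, and its difference from WT (KO mean) was 13.5 points in place of 5.84. Classes made after switching together took 85.2%, 86.2% and 67.9%. Ighm UMIs can include transcripts of immature T cells, and thymocyte markers were at 725, 1979.8 and 3544 CPM. Their part in the Ighm and switched shares was not tested, so these shares need not measure switching in B cells. Within the 4 Ighg genes Ighg2c took a larger share in both KO sections than in WT, and it passed Ighg2b in KO1134. Ighg2c was 67.2% of the 4 in KO1134, 41.3% in KO1308 and 26.1% in WT, while Ighg2b was 28.0%, 52.2% and 70.4%. KO1308 lay between KO1134 and WT for both genes.

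**Figure D2:**
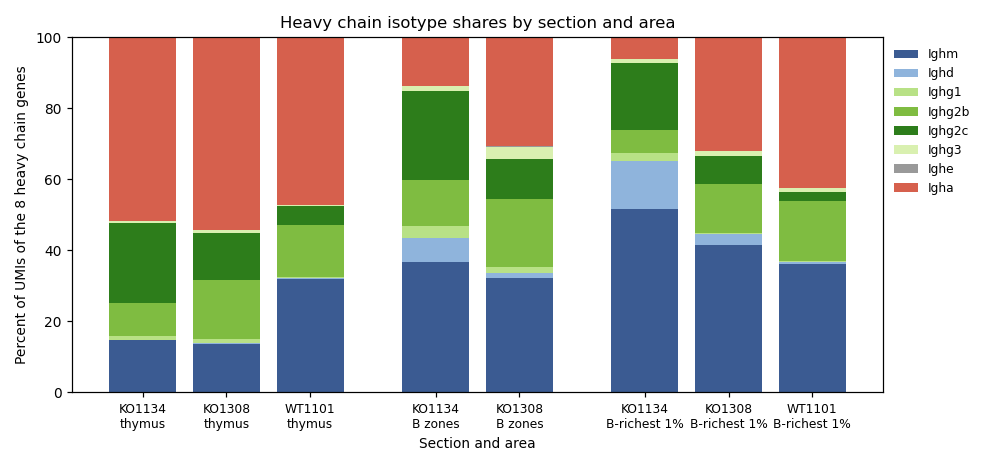
Percent of the UMIs of the 8 heavy chain genes (stacked bars) in the thymus area, in B cell zones and in the 1% of tissue bins richest in B cell genes, for each section; WT1101 had no zone. Ighm is 32.0% of the WT thymus bar and 14.7% and 13.7% of the KO bars, and Ighd is 6.85% of the KO1134 zone bar against 0.123% of its thymus bar.

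B cell zones and thymus area held different classes. Within a section the zones were chosen by B cell genes of the same bins, so these ratios are a description. Ighd was 21.2-fold (18.4 to 24.6) higher in the zones than in the thymus area of KO1134, at 210.1 against 9.90 CPM, and 7.60-fold (5.79 to 9.90) higher in KO1308, at 90.3 against 11.9 CPM. Igha was lower in the zones, at 417 CPM in KO1134 and 1730.4 in KO1308, or 0.100 and 0.275 of the thymus level. Ighm had ratios of 0.951 and 1.14, a mean of 1.05 that was 1.52 with 50 µm bins and 1.57 with at least 100 genes per bin. Ighg2c was at 0.426 and 0.417 of the thymus level, and Jchain at 0.457 and 0.396. At least 2-fold higher in the zones was 1 of 9 members tested in KO1134 (4.5% of all genes) and 1 of 10 in KO1308 (5.06%), in both Ighd. At least 2-fold lower were 3 of 9 (16.4% of all genes) and 4 of 10 (12.8%). Ighe had 0 UMIs in the KO1134 zones, where the floor of 3 UMIs is 0.494 CPM, and 5 UMIs in those of KO1308.

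IgM and IgD together made up 43.6% of heavy chain UMIs in the KO1134 zones and 33.7% in the KO1308 zones. Igha made up 13.6% and 30.7%. The 2 sections thus did not have the same mix in their zones. Ighm UMIs per Ighd UMI numbered 5.36 and 20.0 in the zones against 120 and 133 in the thymus area, and 349 in the WT thymus area. Heavy chain UMIs per UMI of the 3 B cell genes were 95.3, 128 and 75.8 in the thymus areas of KO1134, KO1308 and WT. Per UMI of 6 plasma cell genes they were 51.5, 46.6 and 24.0 in the thymus areas. Xbp1 alone supplied 3210 of the 4718 plasma cell gene UMIs in WT, against 1648 of 3504 in KO1134 and 1645 of 3435 in KO1308. Of the B cell genes, Cd79b was at 1.49 and 1.64 times WT, Cd79a at 3.25 and 3.26 and Ms4a1 at 4.02 and 5.71. Both quotients thus depend on the genes taken, and other choices were not tested. Igkc was 60.3% of light chain constant UMIs in the KO1134 zones and 71.2% in the KO1308 zones, lower than in the thymus area of the same sections. The tissue that was neither thymus area nor zone (1406, 2264 and 2402 bins) also held the members, at 3626 CPM in KO1134, 6811 in KO1308 and 1263 in WT. There too Igha was higher in both KO sections, at 4.71 and 8.80 times WT.

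The KO1134 zones were mainly 1 patch of 1789 bins, with 2 further patches of 70 and 51 bins. Igha made up 9.81% (9.37 to 10.3) of heavy chain UMIs in the large patch, 40% (35.9 to 44.2) in the second and 61.3% (56.1 to 66.4) in the third. Ighd made up 7.33%, 1.96% and 1.12%. The largest KO1308 patch, of 345 bins, had 30.6% Igha and 2.13% Ighd. The patches of 1 section are not replicates, and the third KO1134 patch had only 357 heavy chain UMIs.

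To give WT a value in its B cell-rich bins, the 1% of tissue bins with the highest share of B cell genes in their window was taken in each section, a choice made after seeing the data. All 120 such bins of KO1134, 158 of 160 in KO1308 and 0 of 271 in WT were zone. B cell genes were at 270 CPM in the third KO1134 patch, which was zone, and at 1866, 814 and 285 CPM in these bins. Ighd made up 13.5%, 3.001% and 0.645% of heavy chain UMIs, the last from 3 UMIs. IgM and IgD together made up 65.1%, 44.5% and 36.8%, and Igha 6.11%, 31.9% and 42.4%.

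**Figure D3:**
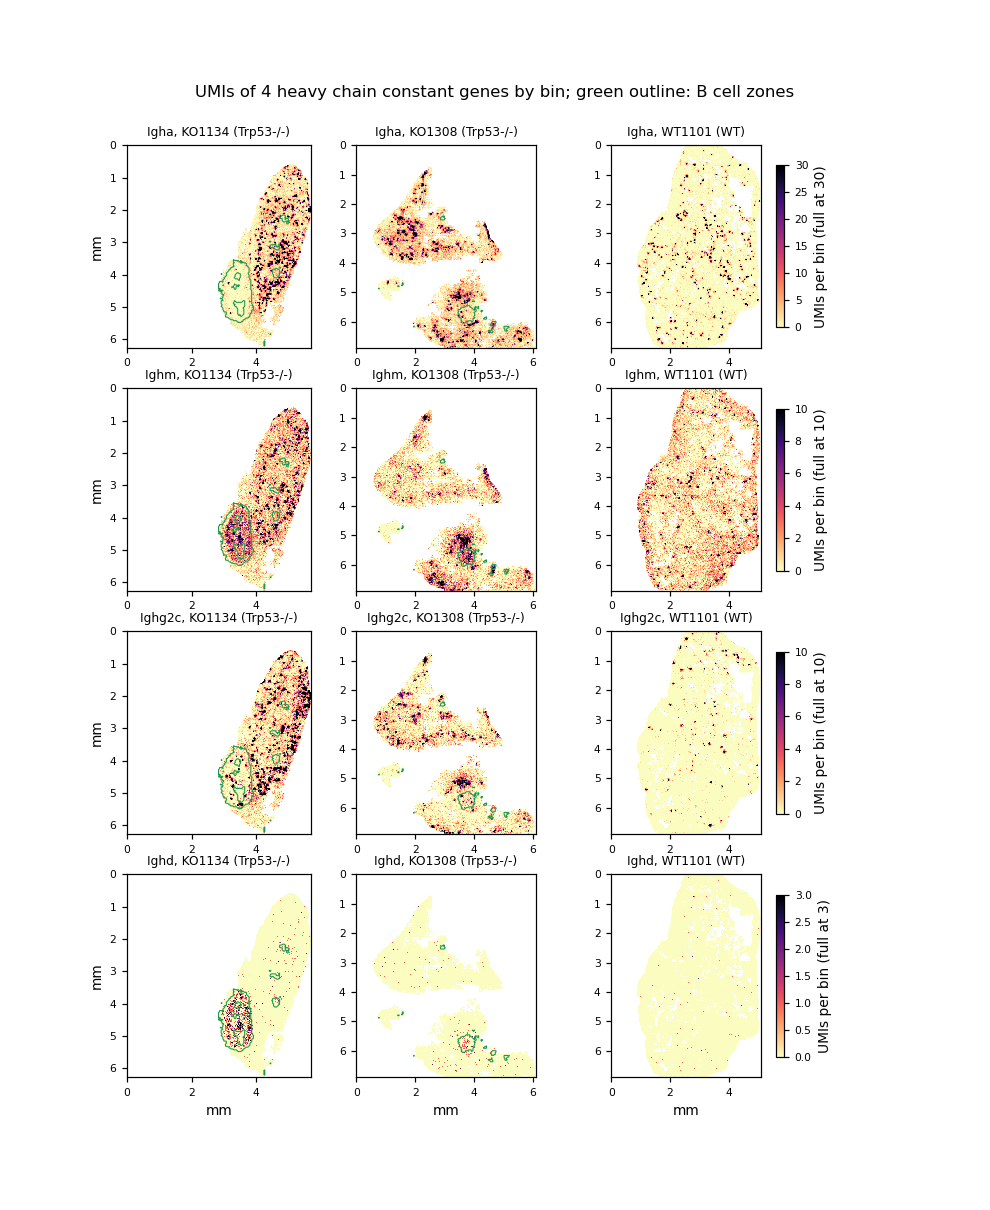
UMIs per 27 µm tissue bin (colour, full at the number on each scale) of Igha, Ighm, Ighg2c and Ighd in the 3 sections, with axes in mm and B cell zones outlined in green. The large zone of KO1134 is pale for Igha and filled for Ighd, and WT1101 shows scattered single bins of Igha on a pale ground.

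Each member but Ighe was found in a larger share of tissue bins in both KO sections than in WT. An Igha UMI was found in 71.7% of tissue bins in KO1134, 84.0% in KO1308 and 26.7% in WT, and an Ighg2c UMI in 56.6%, 45.8% and 5.36%. Igkc was found in 81.0%, 71.3% and 28.8% and Jchain in 41.4%, 43.1% and 10.3%. Ighm differed least, with 70.4%, 55.2% and 53.5%. Ighd, Ighg1 and Ighg3 were found in 1.64% to 8.05% of KO bins and in 0.292% to 0.506% of WT bins. Mean depth per bin also differed between sections, as given above, and its part in these shares was not tested. Bins that failed the gene filter, more than 100 µm from tissue, also held members, at 12571 CPM in KO1308 and 2615 in WT, so a UMI in a bin need not come from a cell there, and the part of such free RNA was not tested.

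Thinning each gene to 300 UMIs did not separate the genes well, so a pair index was added after seeing the data. It is how often 2 UMIs of a gene fell in the same bin, relative to what the depth of the bins gives, and 1 means no clustering. For Igha it was 8.94 in KO1134, 3.82 in KO1308 and 29.5 in WT. For Ighg2c it was 12.0, 6.46 and 101, and for Ighm 6.33, 4.45 and 8.43. It was higher in WT than in either KO section for all 10 members, of which Ighe had only 3 UMIs in the KO1134 tissue. The index corrects for depth only, so a gene held by a smaller share of bins can also have a higher index. The part of this in the differences was not tested. Outside the members, it was 6.76, 6.81 and 9.90 for Cd79a. For the thymus gene Ptcra it was 17.1, 7.76 and 5.03, the first from 77 UMIs. In WT, 5 bins held 72.4% of the 127 Ighe UMIs in tissue, 5 bins held 49.4% of Ighg1, and the highest bin for Igha held 397 UMIs.

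**Figure D4:**
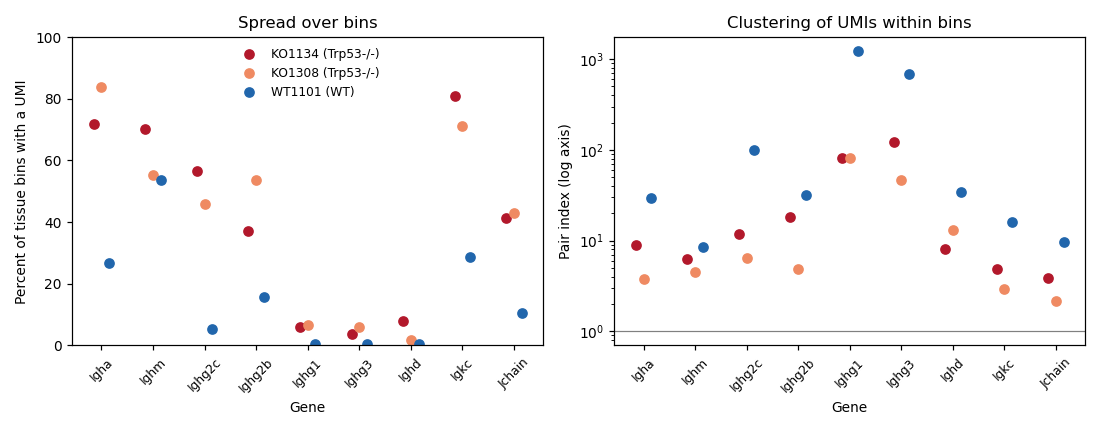
Left, the percent of tissue bins with at least 1 UMI of each gene; right, the pair index (log axis; 1, the grey line, means no clustering beyond depth), for 9 members and 3 sections. WT1101 has the lowest share of bins and the highest index for every gene shown, and its Ighm, at 53.5% of bins, lies close to KO1308 at 55.2%.

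Among bins with many heavy chain UMIs, a part held mostly 1 class. Bins with at least 10 heavy chain UMIs made up 42.4% of the thymus area in KO1134, 33.9% in KO1308 and 8.08% in WT. Among these, 1 gene supplied at least 80% of the heavy chain UMIs in 34.7%, 24.6% and 75.7%. In WT such bins numbered 1510, of which 820 were dominated by Igha, 311 by Ighm, 270 by Ighg2b, 96 by Ighg2c and 4 by Ighe. In KO1134 they numbered 1270, with 832 for Igha and 265 for Ighg2c, and in KO1308 1104, with 958 for Igha. The cut of 10 UMIs kept a much larger share of bins in the KO sections than in WT. The percents of dominated bins therefore compare unlike bins.

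Igha and Ighd were higher in medulla-rich parts of the thymus area in all 3 sections, while Ighg2c and Ighg1 were lower in the richest part than in the poorest. Thymus bins were split in 3 equal parts by the share of 5 medulla epithelial genes in their window. From the medulla-poorest to the richest part, Igha went from 2450.1 through 4498 to 5783 CPM in KO1134, from 4401 through 7819.8 to 7245 in KO1308, and from 814 through 1749 to 1869 in WT. The richest part was 2.36, 1.65 and 2.30 times the poorest. Ighd was at 4.26, 2.27 and 3.57 times the poorest part, from 22 to 130 UMIs per part. Ighm was 1.35, 1.09 and 1.10 times, Jchain 1.61, 1.41 and 1.44 times, and Ighg2c 0.820, 0.742 and 0.918 times. Ighg2c was highest in the middle part of both KO sections, going from 1753 through 2301 to 1438 CPM in KO1134, from 1627 through 1691 to 1208 in KO1308 and from 172 through 143 to 158 in WT. Ighg1 was at 0.825, 0.394 and 0.507 times, and in KO1134 and WT it too was highest in the middle part, at 118 and 16.2 CPM. Ighg2b was at 1.08, 1.57 and 0.809 times. Ighg3 differed between sections, at 1.47, 4.23 and 0.424 times. Ighe was at 2.05 CPM in the richest part of KO1308 against 21.6 in the poorest, or 0.0951 times, and in WT at 0.0766 times, with 5 UMIs against 109. B cell genes were higher along the same parts, going from 36.1 to 148 CPM in KO1134, 39.9 to 170 in KO1308 and 24.6 to 70.7 in WT, and their part in the Igha difference was not tested.

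**Figure D5:**
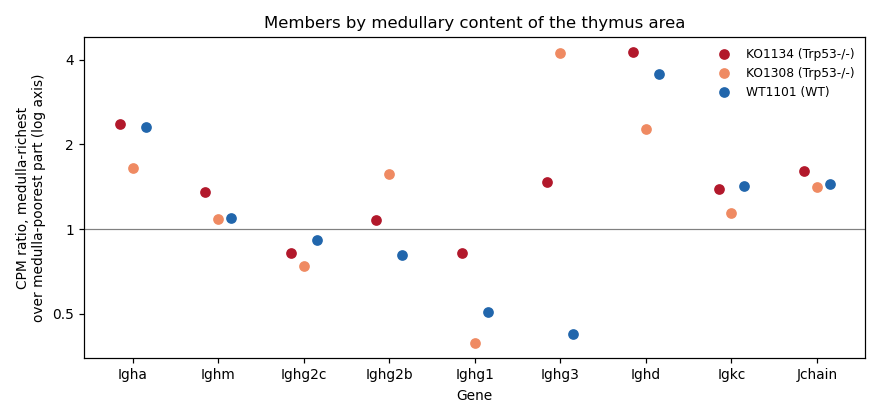
Ratio of CPM between the medulla-richest and the medulla-poorest part of the thymus area (log axis, grey line at 1) for 9 members, with a point per section. Igha (2.36, 1.65 and 2.30) and Ighd (4.26, 2.27 and 3.57) lie above 1 in all 3 sections, and Ighg2c and Ighg1 below.

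Close to the zones the members were lower in KO1134. Thymus bins within 100 µm of a zone bin held 6427 CPM of the members in KO1134, those at 100 to 200 µm 16493, those at 200 to 400 µm 15056 and those beyond 9401. Igha followed, at 1879.7, 6777, 5778 and 2986 CPM. In KO1308 the same distances held 12582, 17762, 22710.4 and 14377 CPM, the first from only 107 bins. Ighd was highest within 100 µm in both, at 49.4, 6.18, 8.82 and 4.55 CPM in KO1134 and 81.8, 37.4, 15.9 and 9.68 in KO1308. Thymus bins close to a zone share windows with zone bins, so they are rich in B cell genes by the rule itself. The 3 B cell genes were at 245 CPM within 100 µm and 50.6 beyond 400 µm in KO1134, and at 307 and 74.7 in KO1308. These distance values are a description.

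Across windows of 5 × 5 bins the members varied together to different degrees. The windows numbered 497 in KO1134, 698 in KO1308 and 1180 in WT, and windows of a section share its library and depth, so the correlations (Pearson, log2(CPM + 10)) are a description. Igkc and Jchain had r = 0.785, 0.711 and 0.564, and Igha and Jchain 0.712, 0.737 and 0.471. Igha and the Ighg genes had r = 0.503 and 0.552 in the KO sections and 0.0931 in WT. Igha and Ighd had r = -0.496 in KO1134, 0.0279 in KO1308 and 0.0337 in WT.

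Of 9300 other genes, Gm30211 was most like Igkc, with r of at least 0.862 in each section, and the 2 overlap. The genes most like Ighm after Gm30211 were Trbc2, Satb1, Hmgb2 and Thy1, which thymocytes express, with lowest r from 0.246 to 0.285. In KO1308 their r was higher than in the other sections, from 0.372 for Thy1 to 0.537 for Trbc2. The gene most like Ighd was Cd79a, a chain of the B cell receptor complex, with r = 0.670 in KO1134, 0.246 in KO1308 and 0.120 in WT. Igha, Jchain, Igkc and the Ighg genes shared Slpi, a protease inhibitor, among their 5 most alike genes, with lowest r from 0.140 to 0.231. The plasma cell gene Mzb1 was among the 5 for Igkc and the Ighg genes. Genes whose lowest r is this weak are no finding.

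Other genes of the antibody system differed from WT to different degrees in the thymus area. Counts are of genes at least 2-fold higher or lower than WT, and the 16.1% and 19.4% of all genes given above are the background for higher ones. For lower ones the background is 7.91% in KO1134 and 3.62% in KO1308. Counts of 1 gene in lists this short are not read as a difference from those shares. Of 12 B cell surface and signalling genes, 8 were higher in KO1134, 9 in KO1308 and 7 in both. Those with the largest mean ratio were Blk, a kinase of the B cell receptor, at 11.9 and 3.12 times WT, Ms4a1 (4.02 and 5.71), Cd22, an inhibitory receptor (4.09 and 4.79), and Fcer2a, a low-affinity receptor of IgE (3.33 and 4.29). Blk was at 0.773 times the thymus level in the KO1134 zones and 4.26 times in those of KO1308, so in KO1134 it did not follow the zones. Ms4a1 (7.68 and 9.56), Cd22 (5.76 and 8.03) and Fcer2a (15.2 and 8.69) were higher in the zones of both. Of 7 B cell transcription factor genes, 6 and 4 were higher, led by Pax5, the B cell identity factor, at 2.51 and 4.61 times, and Spib at 3.25 and 3.66 times. None was lower in these lists.

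Of 15 plasma cell and secretion genes tested, 6 were higher in KO1134 and 9 in KO1308. They were led by Derl3 and Mzb1, both of the endoplasmic reticulum, at 3.58 and 2.42 times WT in KO1134, with Mzb1 at 4.86 times in KO1308, and by Tent5c, which stabilises antibody transcripts, at 2.35 and 4.38 times. Edem1, named after its values were seen, was the 1 lower gene, at 0.178 times WT in KO1134. Of 9 switching and germinal centre genes tested, 1 was higher (Gcsam, 5.71 times) and 3 lower in KO1134, and none was 2-fold higher or lower in KO1308. The 3 lower ones, named after their values were seen, were Bcl6, the germinal centre factor that thymocytes also express, at 0.151 times WT, the death receptor gene Fas at 0.275 and the mismatch repair gene Msh6 at 0.418. The median ratio of the list was 0.547 in KO1134 and 0.841 in KO1308.

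Of 8 immunoglobulin receptor genes tested, 5 and 3 were higher. They were led by Pigr, which carries polymeric IgA across epithelia, at 2.74 and 21.4 times WT, and by the IgG receptors Fcgr4 (10.1 and 8.15) and Fcgr2b (5.35 and 3.77). Pigr had only 32, 154 and 20 UMIs in KO1134, KO1308 and WT, with intervals of 1.52 to 5.05 and 13.4 to 36.1. Of 7 switch cytokine and signal genes tested, 3 and 6 were higher, led by Cxcl13, a chemokine that draws B cells, at 4.05 and 9.08 times and Cd40, a receptor needed for switching, at 2.77 and 3.91 times. Cxcl13 had only 45, 62 and 19 UMIs, with intervals of 2.32 to 7.34 and 5.36 to 16.1. Of 5 lambda and surrogate light chain genes tested, 1 was higher and 1 lower in each KO section, Vpreb3 (2.07 and 3.82) and Vpreb1 (0.328 and 0.358). Both comparisons share the WT section.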

How the data were processed

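The study's methods name BSTMatrix and STAR for the reads, and the submitters' processing notes GRCm38. The authors deposited whole-number UMI counts per gene and barcoded spot without normalisation, and a position score (x and y) for each spot of 2.5 µm, 4.8 µm apart; whether strand was used in counting is not given in the sources used here. Spots were summed in 27 µm bins. Bins with at least 300 genes and at most 30% mitochondrial UMIs, in connected groups of at least 200 bins, were kept as tissue. Thymus bins had, in windows of 7 × 7 bins, at least 50% of their section's share of 6 thymus genes. Folds in the tissue were kept. Totals were 31237062 (KO1134), 21089885 (KO1308) and 41581477 (WT1101) UMIs. Levels are CPM with exact Poisson intervals, ratios have exact conditional binomial intervals and shares Clopper-Pearson intervals, which cover counting error only, from 3 sections. A gene was tested with at least 100 UMIs over the areas compared. The ratio and interval code was tested on simulated data. All members were named; of each gene list, those with the largest mean ratio. The members and lists were chosen with earlier results of these data known. Python 3.11.15, numpy 2.4.6 and scipy 1.17.1 were used. Alternatives were other bin widths, gene minimums, windows, zone rules and denominators, bins without the richest 1%, and each KO section left out.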

Additional observations from a re-analysis of the deposited data

Results flagged for a closer look

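Bins outside the tissue, which no comparison between genotypes used, held the members above the WT level. In bins more than 100 µm from any tissue bin, the 10 genes summed to 18849 CPM in KO1134 (552 UMIs in 69 bins), 12571 CPM in KO1308 (30942 UMIs in 10983 bins) and 2615 CPM in WT1101 (559 UMIs in 1186 bins). These were 1.62, 0.816 and 0.642 times the thymus level of the same section. In KO1134 Ighg2b was at 6044 CPM outside against 751 in the thymus area, from 177 UMIs, Igkc at 7649 against 3131, from 224 UMIs, and Ighg3 at 376 against 55.0, from 11 UMIs. Ighd in the KO1308 bins was at 62.2 CPM against 11.9 in the thymus area. Whether these UMIs came from free RNA or from thin tissue was not tested.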

How the results depend on the processing

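Across bin widths, gene minimums, windows, zone rules and denominators, the sum of the members in the thymus area was 3.25 to 4.01 times WT (KO mean; 3.32 as reported). The highest came without the 1% of bins with most member UMIs, where the difference in switched share was 24.1 points in place of 17.8. Ighm in the zones relative to the thymus area was 1.05 as reported (KO mean), 0.959 with 20 µm bins, 0.967 with at least 500 genes, 1.52 with 50 µm bins and 1.57 with at least 100 genes, and 0.951 to 1.14 with a KO section left out. WT had 2 zone bins with 20 µm bins and 1 with at least 500 genes. For the sum of the members that ratio was 0.485, against 0.618 with 50 µm bins and 0.617 with at least 100 genes. Igha in the largest KO1134 patch was 9.81% and 10.3% with windows of 11 × 11 bins. The Ighd share differed from WT by 0.0210 points and by -0.00803 points in bins over 200 µm from a zone. The top 1% of bins held 54.5% of Igha UMIs thinned to 300 and 20.8% of all of them (KO mean). With a KO section left out, Ighe was 0.0278 to 3.62 times WT (1.82 with both), and the Ighg2b share difference was -5.17 to 2.13 points (-1.52 with both). Of the values that answer a comparison, 53 moved by less than the spread between KO sections and 6 by more. Of other values, 317 moved by less, 33 by more and 3 reversed. That spread is the standard deviation of only 2 sections, and for the patches a counting interval was used in its place. The 53 include the switched share with the Ighg genes summed as 1 class, which cannot change. Why values moved was not tested. Alternatives for the ratio of zones to thymus area, the patches, the pair index and the B cell-richest bins were chosen after seeing the data. No paired analysis was possible because the sections come from different mice and the labels do not pair them. Depth limits Ighe and Ighd most, with 2 to 160 and 104 to 222 UMIs in a thymus area.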
